A study of Homo sapiens with 2 samples.

Results

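The transcripts of 10 cyclin genes were examined for contacts with ZC3H7A and ZC3H7B, related RNA-binding proteins with CCCH zinc fingers. The genes were taken by name from a fixed list and comprised the D-type cyclins CCND1, CCND2 and CCND3, the E-type cyclins CCNE1 and CCNE2, the A-type cyclin CCNA2, the B-type cyclins CCNB1 and CCNB2, and CCNF and CCNG1. All 10 were listed in both deposited tables, among 8204 genes for ZC3H7A and 9159 for ZC3H7B, of which 7218 were common to both. The cells were HEK293, an established line from human embryonic kidney, in which Flag/HA-tagged ZC3H7A or Flag/HA-tagged ZC3H7B was overexpressed after 24 h of doxycycline at 1 µg/mL. Both groups received 100 µM 4-thiouridine for 16 h and light of 365 nm, and the method was PAR-CLIP, in which crosslinked 4-thiouridine appears as a T-to-C conversion and reads that overlap form a cluster. Each protein had 1 library, and there was no library of untagged cells, so no difference between the proteins could be tested and no value has a replicate check.

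Cyclins are the regulatory subunits of cyclin-dependent kinases, and most rise and fall with the cell cycle through timed transcription and ubiquitin-dependent destruction. D-type cyclins pair with CDK4 and CDK6 and link growth signals to phosphorylation of the retinoblastoma protein, E-type cyclins pair with CDK2 at the start of DNA synthesis, and A- and B-type cyclins drive DNA synthesis and mitosis with CDK2 and CDK1. Messenger RNAs of D-type cyclins are short-lived and are known targets of regulation through their 3' untranslated regions (UTRs).

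For ZC3H7A, 3779662 reads in 51808 clusters fell on genes, and for ZC3H7B 2409465 reads in 99805 clusters. A distinct read stood for 12.6 reads on average with ZC3H7A and for 1.99 with ZC3H7B. All intervals are exact 95% intervals that cover counting error alone and treat counts as independent, and PCR copies make those on reads too narrow. Reads are sums over clusters and are not divided by transcript length, so their order between genes is not an order of binding. The gene of each tagged protein had more reads in its own library. Of 5 transcripts chosen as marks of this line, LIN28B, VIM and NEFL were listed in both libraries and PAX2 and NEFM in neither, and none of 5 blood and liver transcripts was listed in either.

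The cyclin transcripts were mostly well covered in both libraries. Together they held 22526 reads in 155 clusters in the ZC3H7A library (0.596% of its reads), and for ZC3H7B 12405 reads in 197 clusters (0.515%). In each library 8 of the 10 genes had more reads than the median gene, which held 135.5 reads for ZC3H7A and 82 for ZC3H7B. The exceptions were CCNE2 and CCNF for ZC3H7A, and CCND3 and CCNF for ZC3H7B. CCND2, CCNB1 and CCNG1 had the most reads of the 10 in both and took 89.8% (ZC3H7A) and 84.0% (ZC3H7B) of the cyclin reads. No cyclin had fewer clusters in the ZC3H7B library, where 9 had more and CCNB2 had the same number. The median over all genes was also higher there, at 7 clusters against 4. Scaled to the median gene, the median log2 ratio of the cyclins by number of clusters was -0.47. By this measure the interval of CCND2 (-1.39 to -0.42) lay below 0 and that of CCNE2 (0.16 to 8.28) above it. The intervals of all other cyclins held 0, so most cyclins could not be told from the median gene.

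**Figure D1:**
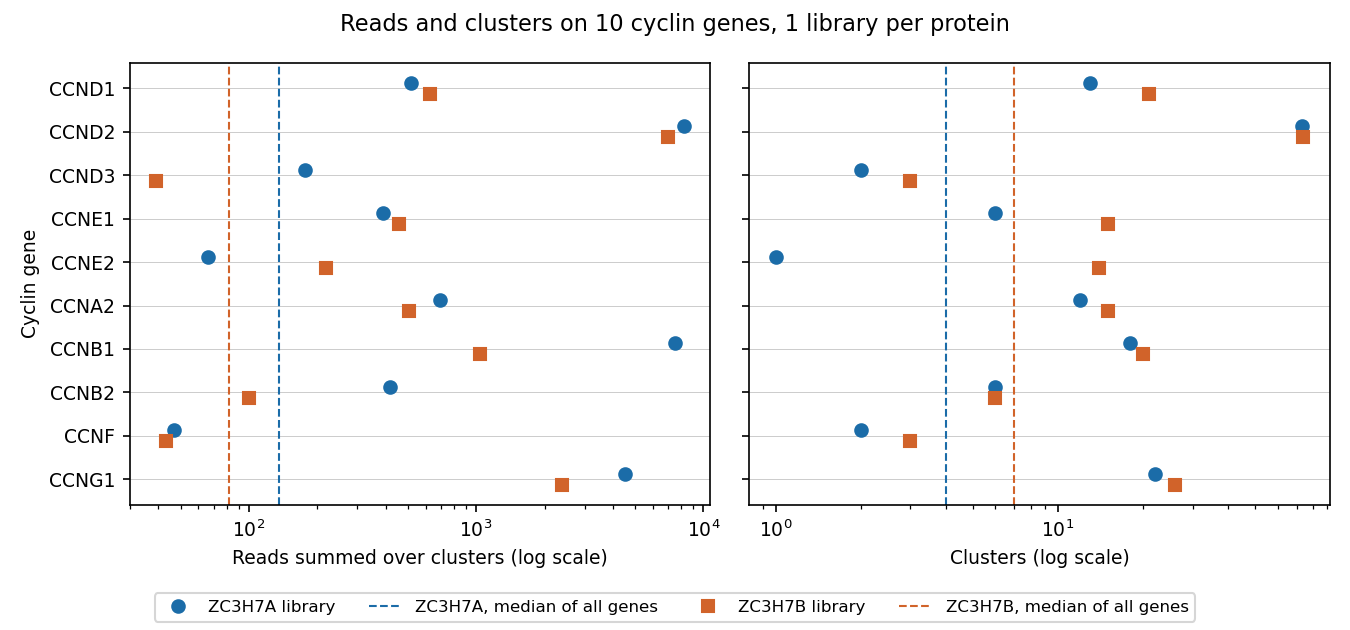
Reads summed over clusters (left) and clusters (right) on each cyclin gene, both on log axes, with 1 point per library and dashed lines at the median of all genes of that library. CCND2 lies farthest right in both panels, with 8190 and 6991 reads in 73 and 74 clusters, and CCNB1 has the widest gap in reads between the libraries, with 18 and 20 clusters.

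The clusters of the cyclins lay in different parts of the transcript. With ZC3H7A the D-type cyclins had 60 of 88 clusters in 3' UTRs (68.2%, 57.4 to 77.7%), and with ZC3H7B 64 of 98 (65.3%, 55.0 to 74.6%). CCNA2, CCNB1 and CCNB2 had 6 of 36 (16.7%, 6.37 to 32.8%) and 11 of 41 (26.8%, 14.2 to 42.9%) there, and 22 of 36 and 23 of 41 in coding sequence. The class shares rest on few genes, since CCND2 gave 73 of the 88 and 74 of the 98 D-type clusters. Gene by gene the classes were not separate with ZC3H7B, where CCNA2 had 60.0% of its clusters in the 3' UTR and CCND2 54.1%, whereas CCNB1 and CCNB2 had 10.0% and 0%. Over all genes, the 3' UTR held 39.8% of clusters for ZC3H7A and 55.8% for ZC3H7B. These shares are shares of clusters, because the tables count clusters per region without their reads, and their relation to the lengths of the regions was not tested.

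**Figure D2:**
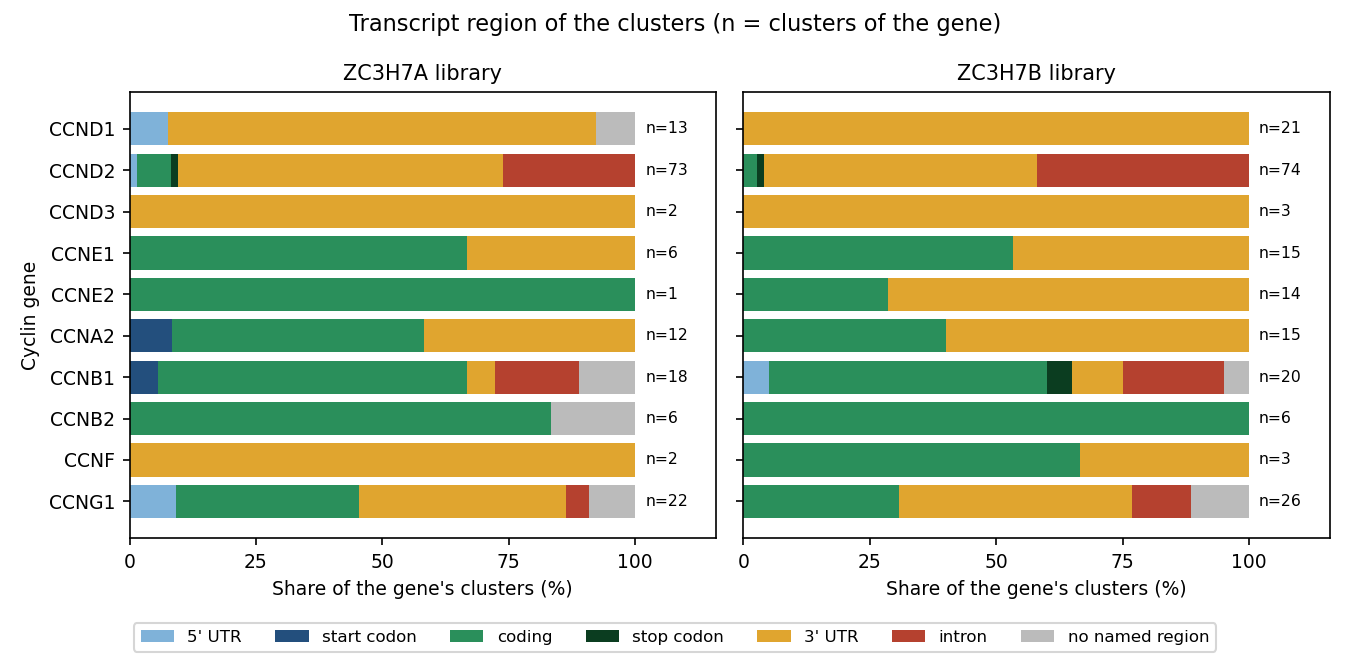
Share of each cyclin gene's clusters by transcript region, in percent, for the ZC3H7A library (left) and the ZC3H7B library (right), with the number of clusters at the end of each bar. The D-type genes are filled mostly by 3' UTR, CCNB1 and CCNB2 by coding sequence, and introns take 26.0% and 41.9% of the clusters of CCND2.

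Among the D-type cyclins, CCND1 carried its clusters almost wholly in the 3' UTR. With ZC3H7A it had 11 of 13 clusters there, 1 in the 5' UTR and 1 in no named region, and with ZC3H7B 21 of 21 there. It had no cluster in coding sequence in either, which at these numbers allows a coding share of up to 24.7% and 16.1%. CCND3 was far more thinly covered, with 2 of 2 and 3 of 3 clusters in the 3' UTR.

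CCND2, which encodes cyclin D2, combined clusters in the 3' UTR with many in introns. In the ZC3H7A library 47 of its 73 clusters lay in the 3' UTR, 19 in introns, 5 in coding sequence, 1 in the 5' UTR and 1 at the stop codon. In the ZC3H7B library 40 of 74 lay in the 3' UTR, 31 in introns, 2 in coding sequence and 1 at the stop codon. The intron share was 26.0% (16.5 to 37.6%) and 41.9% (30.5 to 53.9%), intervals that overlap, beside 6.18% and 6.13% over the clusters of all genes. CCND2 was exceeded in intron clusters by 6 genes with ZC3H7A and by 10 with ZC3H7B. It also ranked high in clusters of any kind, at 7 and 29. Its intron share lay above that of 91.1% and 95.7% of genes with at least 3 clusters in the library, a less extreme place. Of the intron clusters on the 10 cyclin genes, CCND2 held 19 of 23 and 31 of 38. CCNB1, with 3 and 4, and CCNG1, with 1 and 3, held the others, and the other 7 cyclins had none in either library. Over all genes, 18.7% had any intron cluster with ZC3H7A and 21.5% with ZC3H7B. The tables do not say which intron a cluster lay in or how many reads it held, so the share of CCND2 reads from introns is not known. No row named CCND2-AS1, an antisense transcript of this locus, was listed in either table. Reads of other transcripts within these introns were not told apart.

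The genes nearest to CCND2 in reads and 3' UTR share had few or no intron clusters, and most genes had none. Distance was taken over log2 reads and 3' UTR share in both libraries, each divided by its standard deviation, across 4516 other genes with at least 3 clusters in both. FEM1B, a substrate adaptor of a ubiquitin ligase, lay nearest at 0.296, followed by CEBPG, a transcription factor, at 0.463 and SLC38A2, an amino acid transporter, at 0.513. FEM1B had 1 of 68 and 2 of 62 clusters in introns, CEBPG 1 of 40 and 1 of 22, and SLC38A2 0 of 38 and 0 of 37.

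Both coding sequence and 3' UTR held clusters of the E-type cyclins. With ZC3H7A, CCNE1 had 4 of 6 clusters in coding sequence, the other 2 being in its 3' UTR, and with ZC3H7B 8 of 15 and 7 of 15. CCNE2 had a single cluster for ZC3H7A, in coding sequence, and 14 for ZC3H7B, of which 10 were in the 3' UTR and 4 in coding sequence. Neither gene had a cluster in an intron or in the 5' UTR.

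CCNB1 and CCNB2, whose products activate CDK1 for mitosis, had most of their clusters in coding sequence in both libraries. CCNB1 had 11 of 18 clusters in coding sequence for ZC3H7A (61.1%, 35.7 to 82.7%) and 11 of 20 for ZC3H7B (55.0%, 31.5 to 76.9%), with 1 and 2 in the 3' UTR. CCNB2 had 5 of 6 (35.9 to 99.6%) and 6 of 6 (54.1 to 100%) in coding sequence and none in the 3' UTR. Over all genes, coding sequence held 42.7% of clusters for ZC3H7A and 29.6% for ZC3H7B. With ZC3H7A that share lay within the intervals of both genes, and with ZC3H7B it lay below them. CCNA2 was divided, with 6 of 12 and 6 of 15 in coding sequence and 5 and 9 in the 3' UTR. One cluster each of CCNA2 and CCNB1 lay at the start codon in the ZC3H7A library, and no cyclin had one there in the ZC3H7B library.

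CCNG1, an atypical cyclin induced by p53, was spread over both regions, with 8 of 22 coding and 9 of 22 3' UTR clusters for ZC3H7A, and 8 of 26 and 12 of 26 for ZC3H7B. CCNG1P1, a processed pseudogene of CCNG1, was listed in the ZC3H7B library with 15 reads in 1 cluster, and whether reads were shared between the copies was not tested. CCNF, the F-box subunit of a ubiquitin ligase, had 2 clusters, both in the 3' UTR, for ZC3H7A and 3 for ZC3H7B, of which 2 lay in coding sequence.

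Within the cyclins, 6 genes had the higher coding share with ZC3H7A, CCNB2 and CCNF had it with ZC3H7B, and CCND1 and CCND3 stood at 0 with both. Over the 7168 genes compared, these shares were 55.6%, 23.0% and 21.4% of genes, so the cyclins' 6 of 10 lay near the level of all genes. With ZC3H7B, 6 of 10 cyclins and 57.8% of all genes had the higher share in the 3' UTR.

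Reads were next compared between the libraries as the log2 ratio of ZC3H7B over ZC3H7A, scaled to a median of 0 over the 7168 genes that reached 20 reads in the sum of both. The middle 50% of these genes ran from -1.05 to 1.03, and the median of the 10 cyclins was 0.15, or -0.066 by distinct reads. A gene was called higher in a library where its whole interval lay beyond 2-fold. CCNB1, CCNB2 and CCND3 were called higher in the ZC3H7A library, where 18.0% of all genes were called, and CCNE2 was called higher in the ZC3H7B library, where 18.2% were. The cyclins' 3 of 10 and 1 of 10 are to be read against those levels. The other 6 cyclins were called in neither direction. By distinct reads, 1 cyclin (CCNB1) was called towards ZC3H7A, against 10.1% of all genes, and 1 (CCNE2) towards ZC3H7B, against 7.28%. By mean reads per cluster these were CCNB1 (4.65% of all genes) and CCND2 (6.18%). By numbers of clusters no cyclin was called, and of all genes 0.223% were called towards ZC3H7A and 0.321% towards ZC3H7B. At 4-fold CCNB1 was the 1 cyclin called, towards ZC3H7A (6.18% of all genes), and none was called towards ZC3H7B (5.76%). With 1 library on each side, a ratio describes these libraries and not an effect of the proteins.

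**Figure D3:**
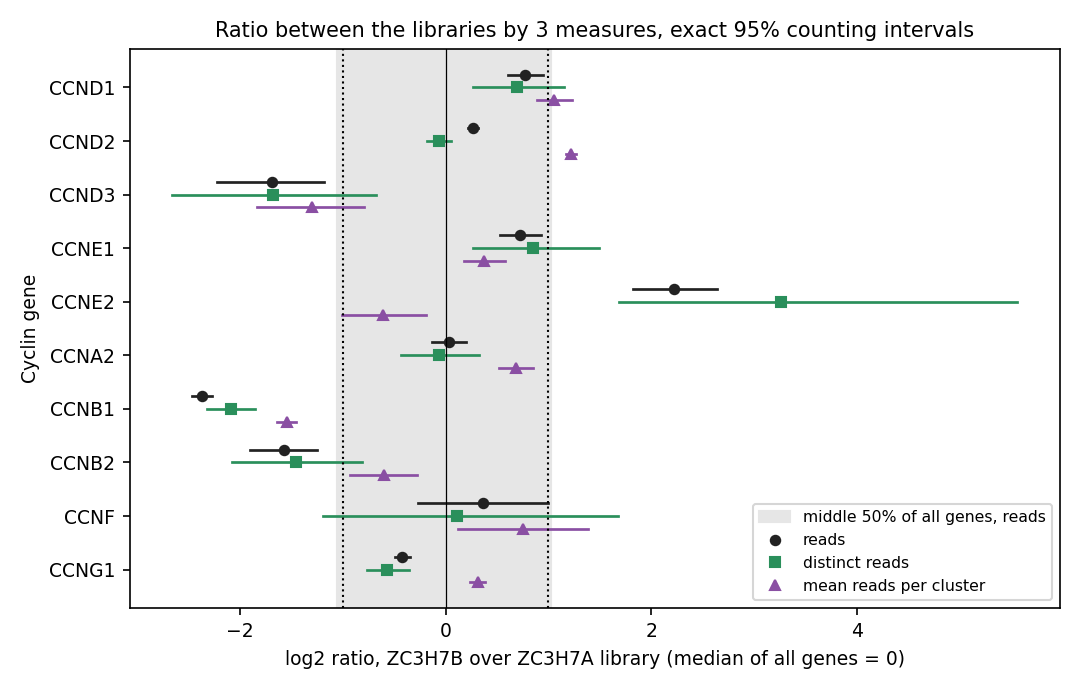
Log2 ratio of the ZC3H7B over the ZC3H7A library for each cyclin gene by reads, distinct reads and mean reads per cluster, each scaled to a median of 0 over all genes. Lines are exact 95% counting intervals, dotted lines mark 2-fold and the grey band holds the middle 50% of all genes by reads. CCNB1 lies beyond 2-fold by all 3 measures, and CCNE2 changes side by mean reads per cluster.

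CCNB1 stood farthest towards the ZC3H7A library. It held 7527 reads there (0.199% of the library) and 1036 in the ZC3H7B library (0.0430%), a log2 ratio of -2.37 (-2.46 to -2.27), or 5.16-fold relative to the median gene. It had 18 and 20 clusters, which held 418 and 51.8 reads on average. Relative to the median gene, CCNB1 stood at -1.55 by mean reads per cluster and at -0.77 (-1.77 to 0.23) by number of clusters. Each distinct CCNB1 read was counted 23.5 times in the ZC3H7A library, above the library's average. In distinct reads, 320 against 313, the ratio was -2.09 (-2.32 to -1.86), still beyond 2-fold relative to the median gene. CCNB2 went the same way with 419 and 100 reads in 6 clusters each, at -1.57 (-1.90 to -1.26). In distinct reads, 37 against 56, CCNB2 stood at -1.46 (-2.08 to -0.82) and no longer had its whole interval beyond 2-fold. By mean reads per cluster it stood at -0.60 (-0.93 to -0.28), also not called, and by number of clusters at -0.93.

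CCNA2 differed from the B-type cyclins in this comparison. It had 694 reads for ZC3H7A and 505 for ZC3H7B, a log2 ratio of 0.034 (-0.13 to 0.20), and its interval did not overlap that of CCNB1 or CCNB2.

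The D-type cyclins did not go one way. CCND1 had 515 and 626 reads, at 0.77 (0.60 to 0.95), and CCND3 had 177 and 39, at -1.69 (-2.23 to -1.18). CCND3 rested on 17 distinct reads for ZC3H7A and 22 for ZC3H7B, and by distinct reads its interval, -2.66 to -0.68, was not wholly beyond 2-fold, nor was it by mean reads per cluster. CCND2 had 8190 and 6991 reads, or 0.217% and 0.290% of each library, and lay at 0.26 (0.22 to 0.31). By distinct reads, 705 and 2800, it lay at -0.066 (-0.19 to 0.055), so the side on which it fell depended on the count used. By mean reads per cluster it stood at 1.22 (1.17 to 1.27), beyond 2-fold towards the ZC3H7B library. Unscaled, that mean was 112 for ZC3H7A and 94.5 for ZC3H7B, beside 38.6 and 12.3 for the median gene. By number of clusters, 73 and 74, CCND2 lay on the other side, at -0.91 (-1.39 to -0.42).

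CCNE2 stood farthest towards the ZC3H7B library and was the least well measured of the called genes. It had 66 reads for ZC3H7A, made of 3 distinct reads in 1 cluster, and 219 reads for ZC3H7B, made of 120 distinct reads in 14 clusters. The log2 ratio was 2.22 (1.82 to 2.64) by reads and 3.27 (1.68 to 5.56) by distinct reads. By mean reads per cluster it lay on the other side, at -0.61 (-1.01 to -0.19), so the direction followed the number of clusters. CCNE1, its paralogue, had 390 and 458 reads in 6 and 15 clusters and stood at 0.72 (0.53 to 0.92).

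CCNG1 and CCNF lay close to the median gene. CCNG1 had 4501 reads for ZC3H7A and 2388 for ZC3H7B, at -0.42 (-0.49 to -0.35). By distinct reads it lay at -0.57 (-0.77 to -0.36) and by number of clusters at -0.68 (-1.56 to 0.20). It changed side to 0.31 (0.24 to 0.38) when reads were averaged per cluster. CCNF had 47 and 43 reads, made of 6 and 27 distinct reads, at 0.36 (-0.27 to 0.99).

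Reads were spread unevenly over the clusters of some cyclins. The deposited median of reads per cluster gives a lower limit to the reads held by the fuller clusters of a gene. In the ZC3H7B library at least 90.7% of the CCND2 reads lay in 37 of its 74 clusters, with a mean of 94.5 reads per cluster against a median of 17. That ratio of mean to median, 5.56, was above those of 99.7% of the 6672 genes with at least 3 clusters, whose median was 1.34. In the ZC3H7A library it was 1.65 for CCND2, higher than for 81.8% of 4960 genes. CCNB1 was uneven in both libraries, with ratios of 2.60 and 2.25, so that at least 80.7% and 77.3% of its reads lay in 9 of 18 and 10 of 20 clusters. CCNA2 had a ratio of 1.20 for ZC3H7A and 3.37 for ZC3H7B. CCND1 (1.07 and 1.57) and CCNE1 (1.12 and 1.33) were more even.

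T-to-C conversion on the cyclin transcripts lay on both sides of the median gene in each library. The converted share of a gene's reads, as the mean of its clusters, ran from 79.3% (CCNE1) to 100% (CCNE2, 1 cluster) with ZC3H7A and from 86.2% (CCND3) to 94.0% (CCNA2) with ZC3H7B. Over all genes the medians were 97.4% and 91.1%, and 7 and 6 of the 10 cyclins lay below it. A median has as many genes below as above it, and these counts are to be read against that even split. The lower quartiles of all genes were 91.8% and 88.0%. CCND2 stood at 88.8% and 86.4%, and CCNG1 at 85.8% and 88.2%. CCNE1 had 27 distinct reads for ZC3H7A, so its value rests on few reads. High values are also easier to reach with few reads, and which conversion threshold the cluster caller used, if any, is not known here.

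**Figure D4:**
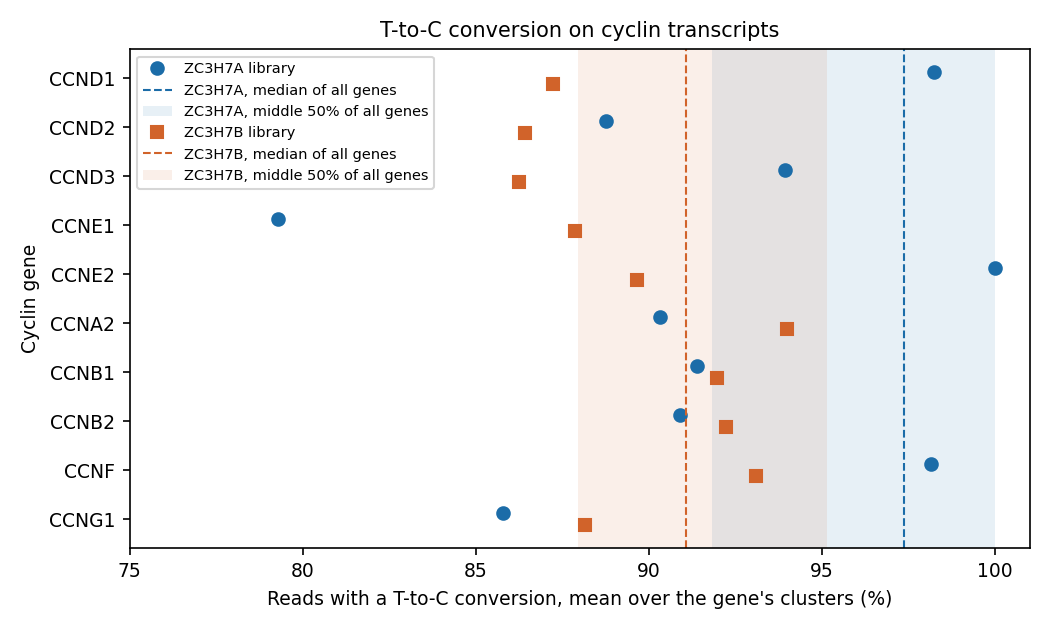
Converted (T-to-C) share of reads, as the mean over a gene's clusters in percent, for each cyclin gene and library, on an axis that starts at 75%. Dashed lines mark the median and shaded bands the middle 50% of all genes; CCNE1 in the ZC3H7A library lies lowest at 79.3%.

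The other genes of the cell cycle engine were described in the same way from lists of their roles. A list of 18 further genes held other cyclins and CCNDBP1, which encodes a cyclin-binding protein and not a cyclin. Of these 18 genes, 13 were listed in both libraries, CCNDBP1 among them. Of the 13, 1 gene, CCNT1, was called higher in the ZC3H7B library (18.2% of all genes) and 0 in the ZC3H7A library (18.0%). CCNT1, a subunit of the transcription elongation kinase, had 3355 and 5029 reads and stood at 1.08 (1.01 to 1.14), with 38 of 46 and 37 of 53 clusters in the 3' UTR. By distinct reads it was at 0.88 (0.70 to 1.06) and was not called. CCNI had 1079 and 1332 reads and stood at 0.80 (0.68 to 0.91).

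Of the kinases that the cyclins activate, 4 were compared. Of these, 1 was called higher in the ZC3H7A library (18.0% of all genes) and 0 in the ZC3H7B library (18.2%). The called kinase was CDK1, on the same side as its partner CCNB1. It had 8113 reads in 22 clusters for ZC3H7A and 2100 in 17 for ZC3H7B, at -1.46 (-1.53 to -1.39). By distinct reads, 410 and 813, it was at -1.07 (-1.24 to -0.89) and not wholly beyond 2-fold. CDK6, a partner of the D-type cyclins, stood at -0.21 (-0.32 to -0.11) with 26 of 29 and 58 of 59 clusters in the 3' UTR. By distinct reads CDK6 changed side, to 0.12 (-0.14 to 0.39). CDK2 and CDK4 were called in neither direction, and CDK7 was listed in neither table.

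Among the CDK inhibitors 5 of 7 were compared, and CDKN2A (-1.91, -2.47 to -1.39) was called higher in the ZC3H7A library and CDKN1A (2.46, 1.82 to 3.16) in the ZC3H7B library. These 1 and 1 of 5 stand beside 18.0% and 18.2% of all genes. CDKN1B, which encodes p27, had 1084 and 775 reads and stood at 0.0087 (-0.13 to 0.14). CDKN1A rested on 25 reads of 4 distinct reads for ZC3H7A. By distinct reads CDKN2A kept its call (10.1% of all genes) and CDKN1A did not (7.28%). Of 6 phosphatases and kinases that switch CDK1 and CDK2, 4 were compared. Of these, 1 was called towards ZC3H7A and 1 towards ZC3H7B, beside 18.0% and 18.2% of all genes. The phosphatase gene CDC25A was called higher in the ZC3H7B library at 2.82 (2.53 to 3.13), also by distinct reads (7.28% of all genes). CDC25B was called higher in the ZC3H7A library at -1.64 (-2.16 to -1.16), and by distinct reads, at -1.23 (-2.10 to -0.31), it was not called. WEE1, the kinase that opposes them, stood at -0.028 (-0.17 to 0.11).

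Genes of the retinoblastoma and E2F families, which act downstream of the D-type cyclins, had a median log2 ratio of 0.99 over the 10 compared, and 3 of these were called higher in the ZC3H7B library and 0 in the ZC3H7A library, beside 18.2% and 18.0% of all genes. The called genes were RB1, RBL2 and E2F3, of which E2F3 had 800 and 1437 reads and stood at 1.34 (1.21 to 1.46). By distinct reads the median was 0.84 and 1 of the 10 was called towards ZC3H7B, beside 7.28% of all genes. TFDP1, which encodes a partner of E2F factors, had 997 and 865 reads and stood at 0.29 (0.15 to 0.42).

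Of 23 genes that act in cyclin destruction, 15 were compared, with a median of 0.17 by reads and of -0.51 by distinct reads, on the other side. The ubiquitin-conjugating enzyme gene UBE2C (-3.11, -3.55 to -2.70), the anaphase-promoting complex gene ANAPC11 (-2.69, -3.33 to -2.12) and the SCF subunit gene SKP1 (-2.37, -2.79 to -1.97) were called higher in the ZC3H7A library, and ANAPC13 (2.99, 2.48 to 3.54) in the ZC3H7B library. These 3 and 1 of 15 stand beside 18.0% and 18.2% of all genes. By distinct reads 3 and 0 of the 15 were called, beside 10.1% and 7.28%. UBE2C, ANAPC11, SKP1 and ANAPC13 are named because they were the 4 called, after their values were seen, as are CDKN1A, CDC25B, RB1 and RBL2. SKP2, the F-box protein that recognises p27, had 906 and 874 reads and stood at 0.44 (0.31 to 0.58). By distinct reads, 82 and 262, SKP2 lay on the other side, at -0.38 (-0.74 to -0.0040). CDC27, a subunit gene of the anaphase-promoting complex, had 705 and 737 reads and stood at 0.56 (0.41 to 0.71).

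**Figure D5:**
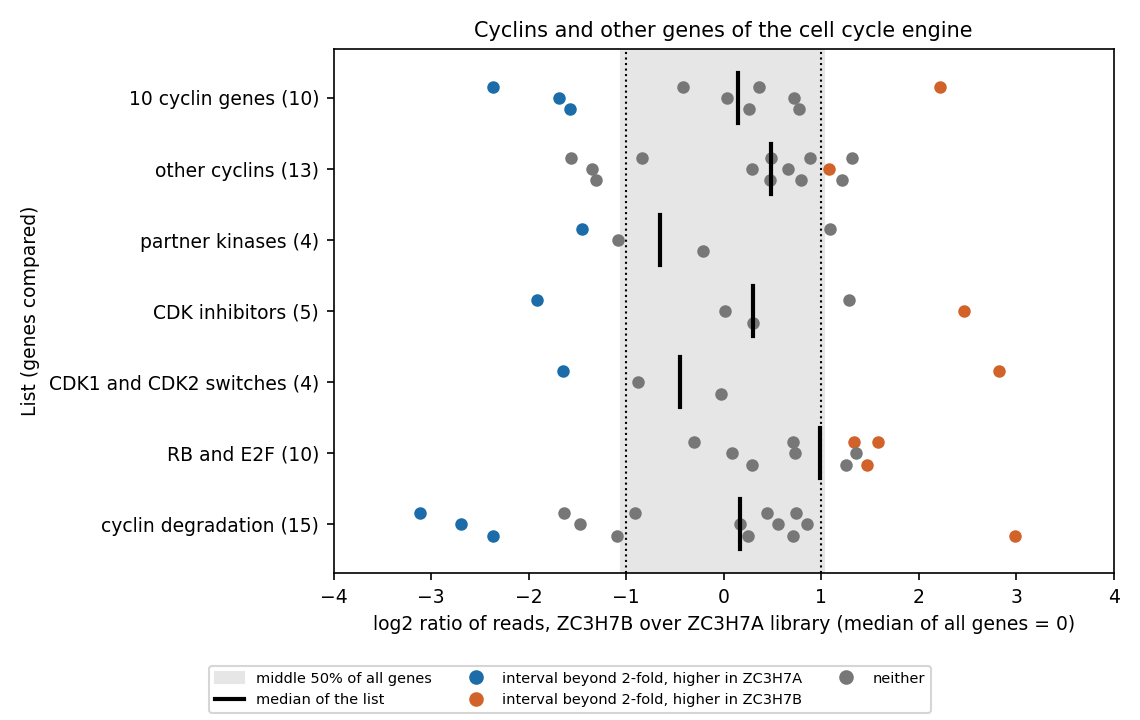
Log2 ratio of reads, ZC3H7B over ZC3H7A, for each compared gene of the 10 cyclins and of 6 other lists, with 1 point per gene, a black bar at each list's median, dotted lines at 2-fold and a grey band for the middle 50% of all genes. Blue and orange points have whole intervals beyond 2-fold, and the list medians lie between -0.65 (partner kinases) and 0.99 (RB and E2F genes).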

How the data were processed

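PAR-CLIP reads of 50 bp were processed by the authors with cutadapt, Bowtie and STAR 2.5.2a on genome build hg19, per the submitters' processing notes, which give no roles. Which caller made the clusters is not given in the sources used here. Per the file headers, the deposited counts per gene are clusters, reads and distinct reads summed over clusters, and clusters per transcript region (the exon column was read as coding sequence). As a deposited fraction, each gene has the median T-to-C share of its clusters. The sum of that share over clusters, also deposited, was divided by the number of clusters.

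Rows naming a class of repeats or small RNAs were left out (282 of 8486 and 407 of 9566 rows, with 1.57% and 1.51% of reads). The ratio and its exact Clopper-Pearson interval were computed over all genes and tested on simulated data. The simulated counts were independent and held no PCR copies, so that test checks the computation and not the width of the intervals on these reads. With 1 library per protein no p-value was computed. Groups came from the sample titles. Alternatives were distinct reads, mean reads per cluster, clusters, total-read, TMM (edgeR 4.0.16) and DESeq2 1.42.0 scaling, the minimum of reads (20, none or 100), class rows kept and a 4-fold call. edgeR and DESeq2 served for scaling only. The 10 members and the lists were chosen with earlier results of these data known. Named are the members, the 2 genes of each list with the most reads, and the 3 genes nearest to CCND2. Python 3.11.15, pandas 2.3.3, scipy 1.17.1 and R 4.3.3 were used.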

Additional observations from a re-analysis of the deposited data

How the results depend on the processing

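No paired analysis was possible because each protein had 1 library. The median log2 ratio of the cyclins was 0.15, and with distinct reads it was -0.066, by the mean of reads per cluster 0.34, with clusters -0.47, 0.31 when scaled to total reads, and 0.0083 over the 9 genes with at least 100 reads summed. Scaling to total reads moved the median of all genes to 0.16. Of 3 cyclins higher in the ZC3H7A library, 1 was called with distinct reads, 1 by the mean per cluster, 0 with clusters and 1 at 4-fold. The 1 higher in the ZC3H7B library, CCNE2, was also called with distinct reads. It was not called by the mean per cluster, where CCND2 was called in its place, nor with clusters or at 4-fold. CCNE2 reversed to -0.61 by mean reads per cluster. The other alternatives (TMM and DESeq2 scaling, no minimum, class rows kept) left both counts at 3 and 1. Of all genes these called 18.0 to 18.5% towards ZC3H7A and 17.3 to 18.2% towards ZC3H7B. With each gene weighted equally, the coding share of cyclin clusters was 40.4% for ZC3H7A and 37.7% for ZC3H7B in place of 25.8% and 23.9%, and the intron share 4.72% and 7.34% in place of 14.8% and 19.3%. Without CCND2 the coding shares were 42.7% and 36.6%, the intron shares 4.88% and 5.69%, and the 3' UTR share of the ZC3H7A library 39.0% in place of 51.0%. Few distinct reads limit CCNE2 (3) and CCNF (6) in the ZC3H7A library.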
